A study of Homo sapiens with 12 samples.

Results

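MAP2, DCX, MAPT, MAP1B, STMN1, STMN2, GAP43, ELAVL3 and ELAVL4 are 9 genes in common use as markers of young neurons. They were taken from the count table by symbol, all 9 were found among its 59050 gene symbols, and the rule names them by symbol with no threshold on a measured value, although earlier results of these data were known when the list was drawn up. The cells were neural progenitor cells (NPC), sampled after 7 days of neural induction, and the human embryonic stem cells (ESC) of the wild-type line HUES8 from which they were made. Induction used dual SMAD inhibition, with LDN193189 (0.05 uM), which blocks BMP receptors, and SB431542 (2.5 uM), which blocks the activin and Nodal receptors and was left out of the medium on the last 2 days. HUES8 is a single cell line, and the labels do not say whether replicates came from separate cultures, so the p-values below measure only the spread between these libraries. Each state had 3 libraries of ribosome-bound RNA and 3 libraries of total RNA depleted of rRNA, 12 libraries in all. The labels do not describe how the ribosomes were isolated.

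Neurons build a cytoskeleton that progenitors lack, with stable microtubules in dendrites and axons and a motile growth cone at the tip. Microtubule-associated proteins bind and bundle microtubules, and kinases release them by phosphorylation. Stathmins do the opposite and take tubulin subunits out of use until they are themselves phosphorylated. GAP43 sits under the membrane of the growth cone, and the ELAVL proteins (also called Hu proteins) bind AU-rich sequences in neuronal mRNAs and steady them. MAP2 is a standard marker of dendrites, DCX of migrating young neurons and MAPT (tau) of axons. MAP1B appears early in growing axons, and STMN1 is also abundant in dividing cells of many kinds.

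The sequences just before the start sites of MAP2, DCX and MAP1B are shown because these are the microtubule-associated proteins whose total RNA differed between NPC and ESC. Each is the 250 bases before the first RefSeq start listed (GRCh38.p14), read 5′ to 3′ on the strand of the gene. RefSeq listed 3 starts for MAP2, 3 for DCX and 2 for MAP1B, and the start of MAP2 used here lies inside the span of the gene. Capitals mark matches, on either strand, to ACAATG (the core of SOX factor motifs) or to the core promoter element TATAAA. The windows are chr2:209661246-209661495 (+) for MAP2, chrX:111412193-111412442 (−) for DCX and chr5:72107225-72107474 (+) for MAP1B.
MAP2: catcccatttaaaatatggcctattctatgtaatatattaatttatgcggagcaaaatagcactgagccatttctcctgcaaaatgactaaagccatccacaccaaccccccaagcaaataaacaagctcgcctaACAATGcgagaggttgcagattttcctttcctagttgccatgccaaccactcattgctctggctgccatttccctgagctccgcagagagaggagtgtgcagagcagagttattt
DCX: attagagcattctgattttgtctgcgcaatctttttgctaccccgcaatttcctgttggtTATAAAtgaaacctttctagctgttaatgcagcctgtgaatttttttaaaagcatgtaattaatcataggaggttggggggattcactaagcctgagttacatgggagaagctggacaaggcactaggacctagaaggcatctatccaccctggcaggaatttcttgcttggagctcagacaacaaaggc
MAP1B: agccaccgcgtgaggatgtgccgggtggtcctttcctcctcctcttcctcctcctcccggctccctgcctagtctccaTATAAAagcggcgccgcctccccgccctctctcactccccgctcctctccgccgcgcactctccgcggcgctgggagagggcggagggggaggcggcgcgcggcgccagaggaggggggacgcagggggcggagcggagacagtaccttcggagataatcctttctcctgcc

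The MAP2 window has ACAATG beginning 115 bases before the start, a motif present in 9.30% of the 34943 RefSeq windows of the same length. TATAAA begins 190 bases before the DCX start and 172 bases before the MAP1B start, and 10.8% of all windows hold it. These are matches of sequence at any place in the window, and whether they serve the listed starts was not tested. None of the 3 windows has an E-box of the forms searched, which were CAGCTG (in 14% of all windows), CAGATG (in 12.2%) and CACGTG (in 6.32%). The MAP2 and DCX windows are AT-rich, with 44.4% and 42.8% GC and 4 and 2 CpG dinucleotides, where the median window has 58.0% and 11. MAP1B has the opposite makeup, 70.0% GC and 25 CpG. STMN1, GAP43 and ELAVL4 also had listed windows, so that 6 of the 9 genes were matched. The STMN1 window has 73.2% GC and 25 CpG and holds ACAATG beginning 192 bases and CACGTG beginning 94 and 50 bases before the start, while GAP43 and ELAVL4 held none of the 5 motifs.

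Library totals were 2422756 to 4451196 counts for ribosome-bound RNA and 19529738 to 35117370 for total RNA. Levels are given in CPM, the count of a gene relative to its library total, scaled by the TMM method of edgeR within each assay. Where a library gave 0 counts, a level of up to 3 counts remains possible, or 0.679 to 1.29 CPM in ribosome-bound RNA and 0.0838 to 0.153 CPM in total RNA (counting error only). Replicate 3 of ESC total RNA stood apart, at r = 0.955 and 0.964 with the other replicates on log2 CPM across genes, which are not independent, where those correlated at 0.996. Replicate 2 of ribosome-bound ESC also stood apart (0.927 and 0.940, against 0.977). Called changes of the 9 genes that rest on either library are also given without it, singly or as a range over libraries left out. The progenitor, pluripotency, neural crest and glia lists are given with all libraries only. The markers of each state went with its label, but these lists were chosen with earlier results of these data known. The match is therefore not independent evidence of cell identity. Of 14 neural progenitor genes 12 rose and 0 fell in total RNA, where 26.4% of all tested genes were higher and 26.2% lower. The summed level of the 14 was 2218 to 2336 CPM in NPC and 773 to 864 CPM in ESC. Of 10 pluripotency genes 0 rose and 9 fell in total RNA, with sums of 5030 to 5201 CPM in NPC and 11300 to 11580 CPM in ESC. These sums include LIN28A, which did not pass the threshold (log2 −0.08 ± 0.10, edgeR adjusted p = 0.554). The 9 that fell did so by at least 5.19-fold (DPPA4), so the sums understate their fall. In bulk libraries such as these, fewer cells of a type cannot be told apart from less RNA per cell.

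The first comparison asked how the total RNA of the neuronal markers differed between NPC and ESC. MAP2 RNA was 47.2-fold higher in NPC, whereas DCX and MAP1B, which mark neurons as well, fell 2.79-fold and 1.90-fold. ELAVL3, very low in ESC, rose, ELAVL4 fell narrowly past the threshold, and the stathmins, MAPT and GAP43 did not pass it. All 9 genes passed the filter on low counts. Of them 2 rose and 3 fell at an adjusted p under 0.05 (edgeR quasi-likelihood F test, Benjamini-Hochberg over 18631 genes), while 52.6% of all tested genes passed, 26.4% higher and 26.2% lower. The median log2 fold change of the 9 was −0.10, and that of all tested genes was 0.03. NPC and ESC did not overlap for 5 of the 9 genes, with NPC higher for 2 and lower for 3, where 62.8% of tested genes had no overlap, 32.8% with NPC higher and 29.9% with NPC lower.

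**Figure D1:**
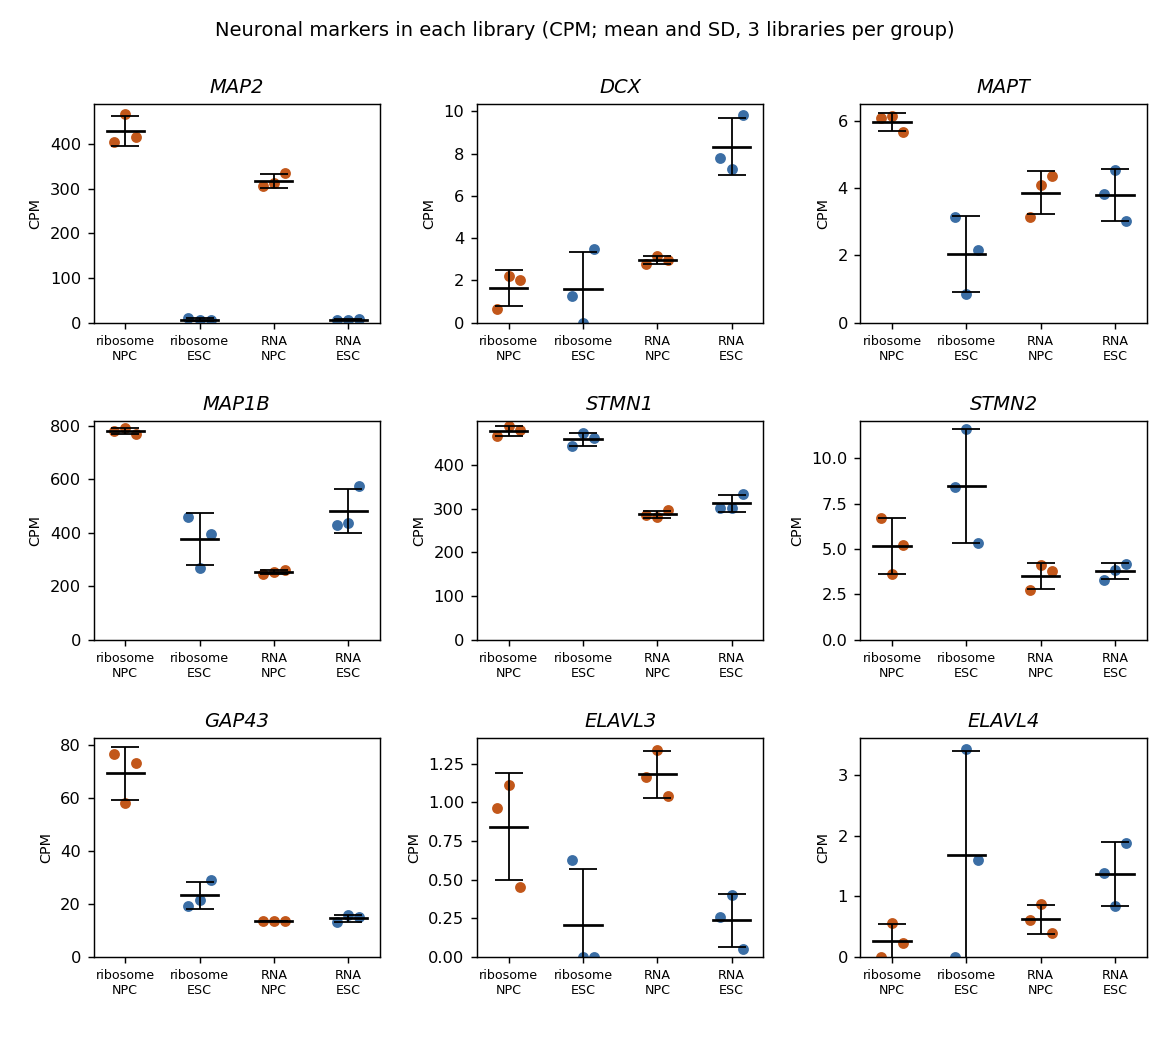
CPM of each of the 9 genes (vertical axis from 0, a scale of its own per gene) in every library, with orange points for NPC and blue points for ESC, in ribosome-bound RNA (left pair of columns) and total RNA (right pair). Horizontal bars are means and whiskers SD over 3 libraries, cut at 0. MAP2 is near 0 beside NPC in both ESC groups, MAP1B is higher on NPC ribosomes and lower in NPC total RNA, and the GAP43 groups stand apart on ribosomes and overlap in total RNA.

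Among the microtubule-associated proteins, MAP2 (chr2:209424047-209734112) had 305, 312 and 335 CPM in the NPC libraries, against 6.59, 5.82 and 7.81 CPM in ESC. Every NPC library was far above every ESC library. The log2 fold change was 5.56 ± 0.14 (SE, edgeR adjusted p = 1.77e-07), above that of 99.5% of the genes tested, and it was 5.68 without ESC replicate 3. The low ESC level rested on 428 counts over the 3 libraries, so MAP2 RNA was well above the counting floor before induction.

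DCX (chrX:111293779-111412192), which stabilises microtubules in migrating neurons, had 2.78, 3.16 and 2.97 CPM in NPC, against 7.81, 7.30 and 9.85 CPM in ESC. All NPC libraries were below all ESC libraries, and the 3 NPC values lay close together. DCX RNA fell by 1.48 ± 0.17 on the log2 scale (edgeR adjusted p = 0.000213), and by 1.34 without ESC replicate 3, its highest library. Only 9.76% of the genes tested had a lower fold change.

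MAP1B (chr5:72107475-72209565) stood at 246, 252 and 263 CPM in NPC, against 430, 438 and 576 CPM in ESC. It was lower in every NPC library, and ESC replicate 3 was again the highest. The fall was 0.93 ± 0.13 on the log2 scale (edgeR adjusted p = 0.000534), with −0.78 without that replicate. MAPT (chr17:45894554-46028334) gave 3.15, 4.08 and 4.36 CPM in NPC, against 3.83, 4.55 and 3.01 CPM in ESC. These values overlapped fully, and the log2 fold change was 0.02 ± 0.21 (edgeR adjusted p = 0.931). The span of MAPT overlaps MAPT-AS1, MAPT-IT1 and STH, which held 6, 30 and 2 counts over all 12 libraries, and the labels do not say whether counting used strand.

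STMN1 (chr1:25884179-25906880), the widely expressed stathmin, had 285, 280 and 296 CPM in NPC, against 301, 300 and 334 CPM in ESC. The NPC values were all lower, by a small margin, and the log2 fold change of −0.12 ± 0.09 did not pass the threshold (edgeR adjusted p = 0.283). Its pseudogene STMN1P1 held 14 counts in NPC and 3 in ESC total RNA. STMN2, the neuronal stathmin on chromosome 8, had 2.74, 4.11 and 3.77 CPM in NPC, against 3.32, 3.83 and 4.19 CPM in ESC. The states overlapped, with a log2 fold change of −0.09 ± 0.20 (edgeR adjusted p = 0.732).

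GAP43 (chr3:115623510-115721483) was at 13.6 CPM in all 3 NPC libraries, against 13.1, 15.8 and 15 CPM in ESC. The NPC values lay inside the range of ESC. The log2 fold change was −0.10 ± 0.13 (edgeR adjusted p = 0.527).

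The RNA-binding proteins were near the lower end of what these libraries could measure. ELAVL3 (chr19:11451326-11481046) had 1.16, 1.34 and 1.04 CPM in NPC, against 0.255, 0.399 and 0.0510 CPM in ESC, where it had 16 counts in all. Every NPC value was above every ESC value, and ELAVL3 passed the filter on low counts through NPC, since 1 ESC library reached the minimum. It rose 4.73-fold (log2 2.24 ± 0.45, edgeR adjusted p = 0.00373). The log2 value was 1.81 without ESC replicate 3 and 2.88 without ESC replicate 2, a 1.56-fold larger difference.

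ELAVL4 (chr1:50048055-50203772) had 0.600, 0.866 and 0.386 CPM in NPC, against 1.38, 0.837 and 1.89 CPM in ESC. NPC replicate 2 was above ESC replicate 2, so the states overlapped. The fall of 1.11 ± 0.40 on the log2 scale just passed the threshold (edgeR adjusted p = 0.0461). With the replicate number as a block the adjusted p was 0.0703. It was 0.0588 without ESC replicate 3 (log2 −0.80), 0.0944 without ESC replicate 1, and 0.110 and 0.140 without NPC replicates 1 and 3, so that the call rested on these libraries.

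Ribosome-bound RNA of the same genes was compared next. MAP2 was again far higher in NPC, 61.9-fold, and GAP43, MAPT and MAP1B rose 2.97-fold, 2.76-fold and 2.08-fold. MAP1B therefore moved in opposite directions in the 2 assays, and GAP43 and MAPT passed the threshold on ribosomes without passing it in total RNA. STMN1 and STMN2 did not pass. DCX, ELAVL3 and ELAVL4 had too few counts to be tested. Of the 6 genes tested 4 rose and 0 fell (edgeR quasi-likelihood F test, Benjamini-Hochberg over 12250 genes), where 61.8% of all tested genes passed, 31.6% higher and 30.3% lower. The median log2 fold change was 1.26 over the 6 and −0.01 over all tested genes. One of the 4, MAPT, passed the filter through NPC, the state where it was high.

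**Figure D2:**
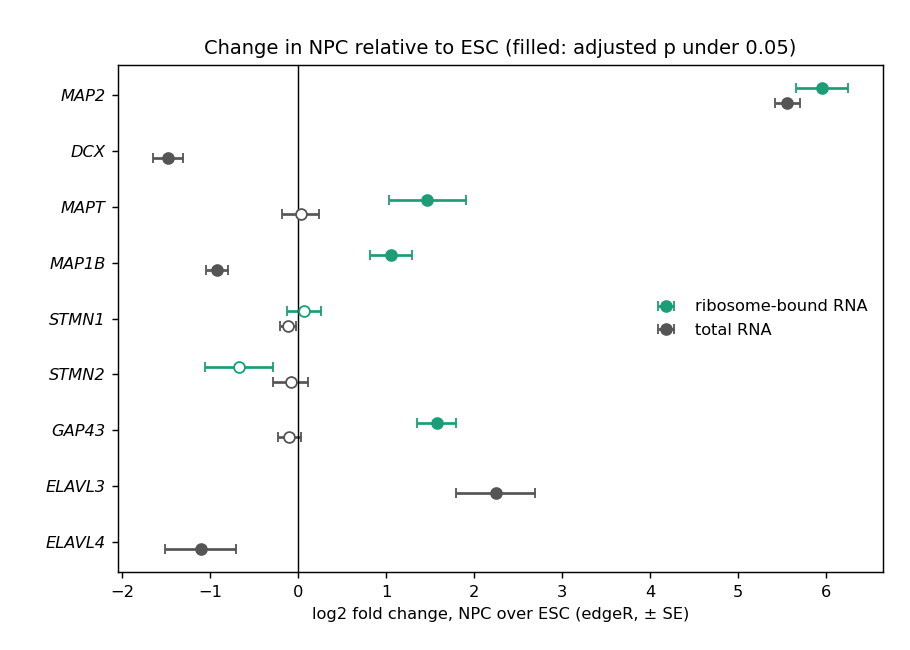
Log2 fold change of NPC over ESC (horizontal axis, ± SE from edgeR) for each gene in ribosome-bound RNA (green) and total RNA (grey), where tested; filled points passed an adjusted p of 0.05. MAP2 is near 5.95 on ribosomes and 5.56 in total RNA, the MAP1B points lie on opposite sides of 0, and the points of GAP43 and MAPT are filled on ribosomes and open in total RNA.

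MAP2 had 404, 466 and 415 CPM on NPC ribosomes, against 9.99, 5.16 and 5.36 CPM on ESC ribosomes. All NPC libraries were far above ESC. The log2 fold change was 5.95 ± 0.30 (edgeR adjusted p = 1.80e-07), and it was 5.81 without ESC replicate 2. The ESC level rested on 64 counts.

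GAP43 had 76.6, 58.0 and 73.3 CPM on NPC ribosomes, against 19.0, 21.5 and 28.9 CPM on ESC ribosomes. The lowest NPC library was above the highest ESC library. GAP43 rose by 1.57 ± 0.22 on the log2 scale (edgeR adjusted p = 9.58e-05), and by 1.5 without ESC replicate 2. MAP1B had 781, 791 and 771 CPM on NPC ribosomes, against 461, 269 and 396 CPM on ESC ribosomes. The NPC libraries agreed within a narrow range above the scattered ESC libraries, of which replicate 2 was the lowest. The log2 fold change was 1.06 ± 0.24 (edgeR adjusted p = 0.00225), and 0.85 without that replicate (adjusted p = 4.87e-06).

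MAPT had 6.09, 6.13 and 5.66 CPM on NPC ribosomes, against 3.12, 0.861 and 2.14 CPM on ESC ribosomes. The groups did not overlap, but the values came from 66 counts in NPC and 20 in ESC. The log2 fold change was 1.47 ± 0.44 (edgeR adjusted p = 0.0118), and 1.17 without ESC replicate 2 (adjusted p = 0.0309). Its adjusted p stayed between 0.0098 and 0.0424 when each library was left out in turn.

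STMN1 had 466, 489 and 479 CPM on NPC ribosomes, against 443, 472 and 461 CPM on ESC ribosomes. These ranges overlapped, with a log2 fold change of 0.06 ± 0.19 (edgeR adjusted p = 0.801). STMN2 had 6.73, 3.62 and 5.21 CPM on NPC ribosomes, against 8.43, 11.6 and 5.36 CPM on ESC ribosomes. The NPC values tended to be the lower ones but overlapped those of ESC, and the log2 fold change of −0.68 ± 0.38 did not pass (edgeR adjusted p = 0.145). Among the 6 tested genes NPC and ESC did not overlap for MAP2, MAPT, MAP1B and GAP43, each higher in NPC, where 67.1% of all tested genes had no overlap, 35.0% with NPC higher and 32.1% with NPC lower.

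The remaining 3 genes were close to the counting floor on ribosomes. DCX had 0.641, 2.23 and 2.04 CPM in NPC and 1.25, 0 and 3.48 CPM in ESC, from 19 and 17 counts. The ratio of NPC over ESC was 0.930 with a 95% interval of 0.458 to 1.91 (exact binomial split of the counts, counting error only), where the ratio in total RNA was 0.363. Without a filter the interaction of assay and state for DCX was 1.39 ± 0.68 on the log2 scale and did not pass (edgeR adjusted p = 0.155). ELAVL3 had 9 counts in NPC and 2 in ESC, a ratio of 3.75 (0.775 to 35.6). ELAVL4 had 3 counts in NPC and 14 in ESC, a ratio of 0.178 (0.0329 to 0.639), and the counts of ELAVL4 in ESC came from 2 of the 3 libraries. Without a filter on low counts, edgeR gave adjusted p-values of 0.949 for DCX, 0.377 for ELAVL3 and 0.0827 for ELAVL4.

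The third question was whether the change on ribosomes differed from the change in total RNA, for which edgeR tested the interaction between assay and state in the 12 libraries. The ribosome-bound level relative to total RNA, often called translational efficiency, rose in NPC for MAP1B, GAP43 and MAPT, by 3.83-fold, 3.09-fold and 2.63-fold. For MAP2, STMN1 and STMN2 no difference in the ratio was detected. Of the 6 genes tested 3 rose and 0 fell, where 41.9% of the 11866 genes tested passed, 22.9% higher and 19.0% lower. The median was 0.87 over the 6 and −0.05 over all tested genes on the log2 scale. The ratio is relative, because every library was scaled to its own total.

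MAP1B gave the largest interaction of the 6, 1.94 ± 0.28 on the log2 scale (SE, edgeR adjusted p = 7.64e-05), above that of 93.8% of the genes tested. It was 1.75 both without ESC total RNA replicate 3 and without ESC ribosome-bound replicate 2. GAP43 gave 1.63 ± 0.27 (edgeR adjusted p = 0.000206), with 1.58 without either of those libraries. MAPT gave 1.39 ± 0.46 (edgeR adjusted p = 0.0236). That call was lost without ESC ribosome-bound replicate 2 (adjusted p = 0.0503) or 3 (0.0533), without ESC total RNA replicate 2 (0.0509) and without NPC total RNA replicate 1 (0.0573).

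The interaction of MAP2 was 0.35 ± 0.31 (edgeR adjusted p = 0.374), so its rise on ribosomes was not distinguished from its rise in total RNA. STMN1 gave 0.13 ± 0.21 (adjusted p = 0.633) and STMN2 −0.64 ± 0.44 (adjusted p = 0.256).

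Within each state, the ribosome-bound level was also set against total RNA. In NPC the ribosome-bound level was higher for 5 of the 6 genes (64.1% of all tested genes passed in either direction, 30.8% higher and 33.3% lower). In ESC it was higher for 3 of the 6 (68.2% passed, 30.6% higher and 37.5% lower). The medians of the 6 were 0.88 in NPC and 0.55 in ESC on the log2 scale, and those of all tested genes were −0.04 and −0.14. With median-of-ratios scaling (RLE) the ESC median of all genes was 0.01, a shift of the whole scale, and each of these 6 genes kept its direction in both states under it except MAP1B in ESC, which was near 0.

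**Figure D3:**
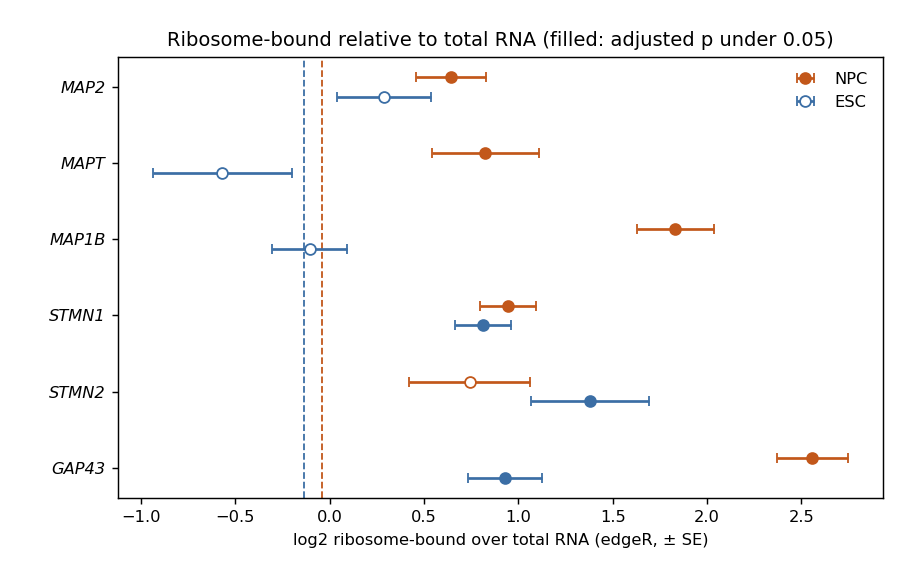
Log2 ratio of ribosome-bound over total RNA (horizontal axis, ± SE from edgeR) of the 6 tested genes in NPC (orange) and ESC (blue); filled points passed an adjusted p of 0.05 and dashed lines mark the medians of all tested genes, −0.04 in NPC and −0.14 in ESC. MAP1B, MAPT and GAP43 lie further right in NPC, the STMN1 points nearly coincide, and STMN2 lies further right in ESC.

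In NPC the log2 ratio of GAP43 was 2.56 ± 0.19 (edgeR adjusted p = 1.08e-08), higher than that of 96.7% of genes. In ESC it was 0.93 ± 0.20 (adjusted p = 0.000514), so GAP43 was above the typical gene in both states. MAP1B had 1.83 ± 0.20 in NPC (adjusted p = 9.76e-07) and −0.11 ± 0.20 in ESC (adjusted p = 0.646), close to the median gene there. MAPT had 0.82 ± 0.28 in NPC (adjusted p = 0.0181, or 0.0764 without NPC total RNA replicate 1) and −0.57 ± 0.37 in ESC (adjusted p = 0.180).

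MAP2 had 0.64 ± 0.19 in NPC (edgeR adjusted p = 0.00666) and 0.29 ± 0.25 in ESC (adjusted p = 0.314). STMN1 was higher on ribosomes in both states, with 0.94 ± 0.15 in NPC and 0.81 ± 0.15 in ESC (edgeR adjusted p = 4.00e-05 and 0.000143). STMN2 had 0.74 ± 0.32 in NPC, just short of the threshold (adjusted p = 0.0532; 0.0340 with RLE scaling and 0.0164 with DESeq2), and 1.38 ± 0.31 in ESC (adjusted p = 0.001). Whether STMN2 passed in NPC also depended on single libraries, with adjusted p-values of 0.0242 to 0.220 when each was left out. DCX, untested for low counts, had a ratio of ribosome-bound over total counts of 0.661 (0.392 to 1.05) in NPC and 0.267 (0.154 to 0.432) in ESC (95% exact intervals, counting error only). Without a filter on low counts edgeR gave log2 ratios for DCX of −0.63 ± 0.46 in NPC (adjusted p = 0.281) and −2.02 ± 0.44 in ESC (adjusted p = 0.000243). The medians of all genes in that fit were −0.13 in NPC and −0.32 in ESC. The ESC value of DCX rested on 4, 0 and 13 ribosome-bound counts. The 0 was in replicate 2, and the unfiltered fit was not run without that library. The ESC calls held without ESC total RNA replicate 3 or ESC ribosome-bound replicate 2, with log2 ratios of 0.89 and 0.80 for STMN1, 1.46 and 1.12 for STMN2, and 0.98 and 0.99 for GAP43.

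Other genes of the same families and pathways were read as lists, whose members were named from general knowledge. Their counts stand beside the shares of all tested genes given above, which were 26.4% higher and 26.2% lower in total RNA, 31.6% and 30.3% on ribosomes, and 22.9% and 19.0% for the ratio between assays. Among 13 paralogues and close relatives of the 9 genes, 12 were tested in total RNA, and 3 rose, 5 fell and 4 did not pass (median log2 −0.22). The doublecortin-like kinases split, with DCLK2 at 3.05 ± 0.30 and DCLK1 at −3.05 ± 0.16, and STMN3 fell by 2.71 ± 0.32. MAP1A, a paralogue of MAP1B, rose by 1.21 ± 0.12. On ribosomes 2 of 10 rose and 5 fell (median −0.61). MAP1A rose by 1.90 ± 0.26 and BASP1, a growth cone protein like GAP43, by 1.24 ± 0.22, while DCLK1 fell by 3.11 ± 0.22 and ELAVL2, the third neuronal Hu gene, by 1.79 ± 0.31. STMN4 had 30 counts in NPC and 0 in ESC total RNA, at least 6.68-fold higher against 3 counts over the group. In the ratio 0 of 10 rose and 1, MARCKSL1, fell (−1.16 ± 0.26).

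Of 22 other neuron markers, 21 were tested in total RNA, and 5 rose, 15 fell and 1 did not pass (median −1.07, against 0.03 over all tested genes). CNTN2, an axonal adhesion protein, rose by 2.87 ± 0.50 and MAP6, a microtubule stabiliser, by 2.83 ± 0.15. The surface protein THY1 fell by 3.25 ± 0.13, and CRMP1, a semaphorin signalling protein, fell by 3.02 ± 0.13. The summed level of the list was 3379 to 3444 CPM in NPC and 4339 to 4571 CPM in ESC total RNA, with no gene of the list at 0 in either state. On ribosomes 3 of 18 rose and 10 fell (median −0.85). DPYSL5, a collapsin response protein, rose by 2.03 ± 0.19 and NCAM1 by 0.79 ± 0.24, while THY1 fell by 3.51 ± 0.28 and CRMP1 by 2.39 ± 0.23. The ratio rose for 6 of 18 and fell for 1 (median 0.43), led by SYT1, the calcium sensor of synaptic vesicles (2.13 ± 0.26), and NEFM, a neurofilament subunit (2.01 ± 0.25), while that of UCHL1 fell by 0.82 ± 0.22. TUBB3, the neuronal beta-tubulin, named here after its values were seen, fell by 2.14 ± 0.26 on ribosomes and by 1.37 ± 0.31 in total RNA.

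Genes listed as proneural and neuron transcription factors, EOMES and NEUROG3 among them, summed to 19.4 to 20.6 CPM in NPC and 20.4 to 20.6 CPM in ESC total RNA. The sum does not show which of them act in neuron formation in these cells. Of 20, 11 were tested in total RNA, and 5 rose and 4 fell (median 0.35). NEUROG2, a proneural factor, had 0.938 to 1.2 CPM in NPC and 0 counts in ESC, at least 22.7-fold higher against 3 counts over the group, and POU3F2 rose by 5.30 ± 0.51. EOMES fell by 5.17 ± 0.36 and INSM1 by 3.54 ± 0.31. ATOH1, NEUROD2, NEUROD6 and TBR1 were at 0 counts in all 3 NPC total RNA libraries. On ribosomes 4 were tested, of which MYT1 and POU3F2 rose (3.73 ± 0.27 and 4.0 ± 0.69) and EOMES and EBF2 fell (−6.43 ± 0.41 and −3.33 ± 0.54). A gene with few counts in 1 state could pass the filter on low counts only through the other state, where it was high. For such genes the filter favoured the direction of the call, in total RNA as well. In the ratio 1 of 4 rose, MYT1 (2.77 ± 0.35).

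**Figure D4:**
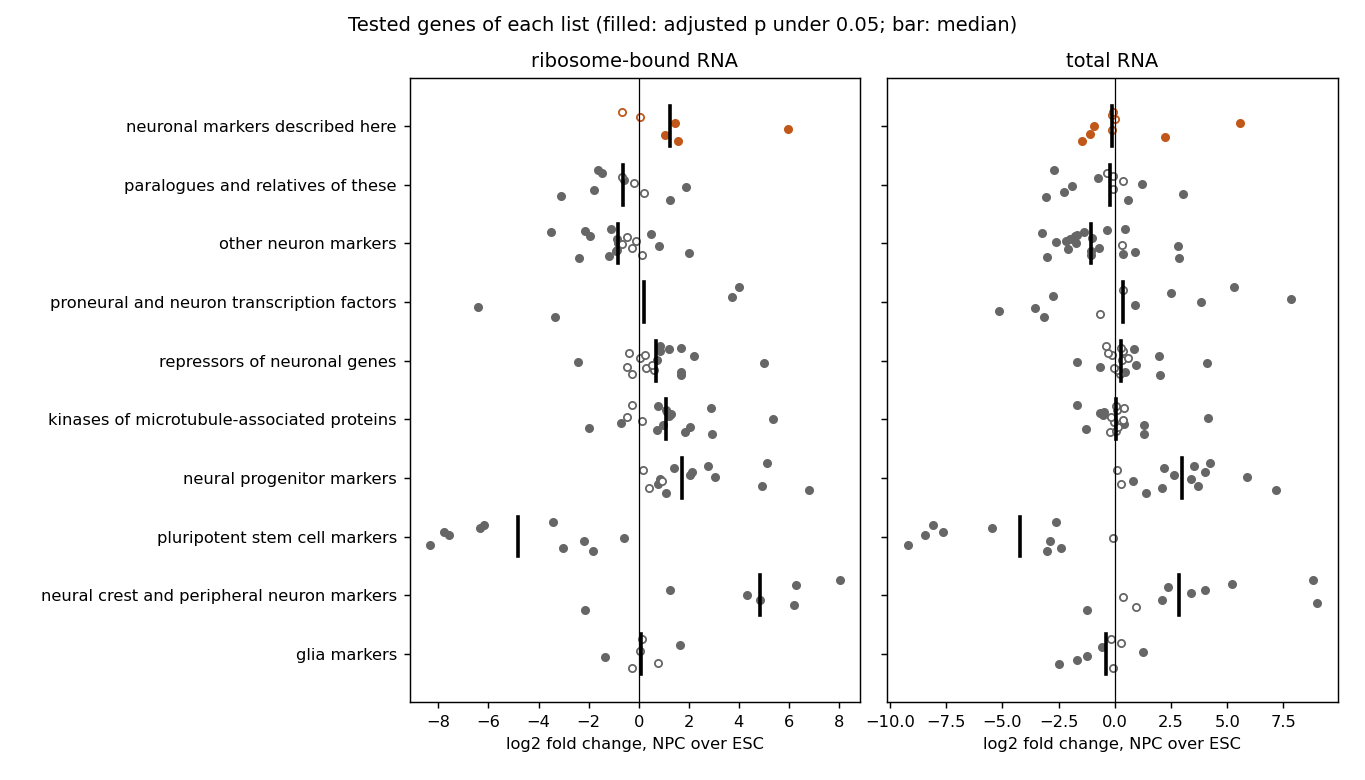
Log2 fold change of NPC over ESC (horizontal axis) of every tested gene in 10 gene lists, in ribosome-bound RNA (left) and total RNA (right), with the 9 neuronal markers in orange. Filled points passed an adjusted p of 0.05 (edgeR) and black bars are list medians, which for the kinases are 1.07 on ribosomes and 0.05 in total RNA.

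Proteins that hold neuronal genes silent gave 6 rises, 2 falls and 10 not past the threshold of 18 in total RNA (median 0.28). HES5, a Notch target, rose by 4.12 ± 0.48 and the phosphatase CTDSP1 by 2.01 ± 0.33, while ID1 fell by 1.69 ± 0.32 and HDAC2 by 0.68 ± 0.21. On ribosomes 9 rose and 1 fell (median 0.68), with HES5 at 5.01 ± 0.58, ID4 at 2.22 ± 0.30 and ID1 at −2.42 ± 0.20. In the ratio 3 rose and 0 fell of 18, RCOR3 by 1.38 ± 0.28, CTDSPL by 1.2 ± 0.30, and REST, the DNA-binding repressor itself, named here as the third of 3 rises, 2.27-fold (edgeR adjusted p = 0.00345).

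Kinases that act on microtubule-associated proteins, with their activators, include the MARK and BRSK kinases and CDK5. In total RNA 4 of 18 rose and 5 fell (median 0.05), with MAPK10 at 4.15 ± 0.13, BRSK1 at 1.32 ± 0.15, PRKCA at −1.67 ± 0.11 and CDK5 at −1.30 ± 0.17. On ribosomes 12 of 17 rose and 2 fell (median 1.07), with MAPK10 at 5.36 ± 0.35, BRSK1 at 2.91 ± 0.20, CDK5 at −1.98 ± 0.25 and GSK3A at −0.71 ± 0.27. The ratio rose for 12 of 17 and fell for 0 (median 1.19), led by MARK4 (2.41 ± 0.29) and BRSK2 (1.99 ± 0.36). All calls on these lists are from the same edgeR tests over all genes, at an adjusted p under 0.05. Without ESC total RNA replicate 3, 10 repressors rose and 4 fell in total RNA, 6 kinases rose and 7 fell, and 6 of the other neuron markers rose and 15 fell, while the paralogues gave 3 rises and 6 falls and the transcription factors again gave 5 rises and 4 falls. Without ESC ribosome-bound replicate 2, 11 repressors rose and 3 fell on ribosomes and 2 paralogues rose and 7 fell, and the counts of the other 3 lists did not move. The ratio of kinases rose for 12 of 17 without either library. Without the total RNA library 2 paralogues rose in the ratio and 1 fell, and without the ribosome-bound library 0 rose and 2 fell. Among the other neuron markers 7 rose in the ratio without either library, and the falls numbered 1 without the total RNA library and 4 without the ribosome-bound library. The repressors gave 3 rises and 0 falls in the ratio without the total RNA library, and 4 rises and 1 fall without the ribosome-bound library.

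MAP1B was among 390 genes, 3.29% of the 11866 tested in both assays, that were higher on NPC ribosomes and lower in NPC total RNA. MAP2 belonged to the 1803 genes (15.2%) that were higher in both, and MAPT and GAP43 to the 1561 (13.2%) that were higher on ribosomes and not past the threshold in total RNA. MARK1, MARK2, MAPK9 and SYT1 were among the genes of the lists with the same pair of calls as MAP1B.

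Markers of other neural lineages were read as lists too. Of 10 tested neural crest and peripheral neuron genes 7 rose and 1 fell in total RNA, and their sum was 193 to 195 CPM in NPC and 10.7 to 21.5 CPM in ESC. On ribosomes 6 of 7 rose and 1 fell, with sums of 259 to 296 CPM in NPC and 29.3 to 38.6 CPM in ESC. Only 2 of the 12 genes had counts in all 3 ESC ribosome-bound libraries, against 8 in NPC. Genes without them could pass the filter on low counts only with NPC libraries, so the filter favoured rises. Of all tested genes 26.4% were higher and 26.2% lower in total RNA, and 31.6% and 30.3% on ribosomes. Glia markers gave 1 rise and 4 falls of 8 in total RNA, with sums of 104 to 111 CPM in NPC and 126 to 160 CPM in ESC. SLC1A3, which did not pass, averaged 69.9 CPM of this in NPC and 79.0 CPM in ESC. On ribosomes 1 glia marker of 6 rose and 1 fell, and the sums overlapped (140 to 179 CPM in NPC and 130 to 162 CPM in ESC). The part of these lineages in the values of the neuronal genes was not tested.

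For each gene tested in both assays, the 2 genes were sought whose centred profile of log2(CPM + 0.5) over the 12 libraries had the smallest root mean square difference from it, among 11866. MAP2 was closest to PAMR1 (0.29) and SMOC1 (0.34), both high only in NPC. GAP43 was closest to ANKRD11 (0.19) and GRIPAP1 (0.21). ANKRD11 averaged 572 CPM on NPC ribosomes and 176 CPM on ESC ribosomes, against 121 and 116 CPM in NPC and ESC total RNA. MAP1B was closest to MYO10 (0.17), a myosin of filopodia, and PDCL3 (0.19). MAPT was closest to PHRF1 (0.19) and DCTN1 (0.20), a dynactin subunit, and STMN1 to ARPC5 and the glutamate transporter SLC1A3 (0.12 each). STMN2 was closest to SARAF and HYOU1 (0.22 each), which work at the endoplasmic reticulum. These likenesses describe 12 libraries in 4 groups and were given no test.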

How the data were processed

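Gene counts of 12 libraries were used, 3 each of ribosome-bound RNA and of rRNA-depleted total RNA from NPC and from ESC. The authors deposited raw counts per gene symbol, not normalized, in 1 table of 59050 symbols, each column of which matched the title of a single sample. The builds hg38 and GRCh38 and the tools STAR 2.7.1a, featureCounts 1.6.4, Bowtie 1.2 and cutadapt 1.18 are named, per the submitters' processing notes. What each tool did, which annotation was used, and how strand and multi-mapping reads were handled is not stated there, so counts of overlapping genes and near-identical copies are uncertain.

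NPC were tested against ESC with edgeR 4.0.16 in R 4.3.3 (TMM scaling, filterByExpr with a minimum count of 10, quasi-likelihood F test, Benjamini-Hochberg adjustment over all genes tested, threshold 0.05), in a fit per assay. The interaction of assay and state, and ribosome-bound over total RNA within each state, came from 1 joint fit of the 12 libraries, restricted to genes kept by the filter in both assays. Standard errors were recovered from each log2 fold change and its F value (absolute change over root F). CPM are scaled within each assay, and ratios between assays use factors from all 12 libraries. Exact 95% intervals of count ratios come from the binomial split of the summed counts. Alternatives were RLE scaling, no filter, DESeq2 1.42.0, limma-voom (limma 3.58.1), the replicate number as a block, a fit over all 12 libraries, and leaving out each library. Other steps used Python 3.11.15 with matplotlib 3.10.9, scipy 1.17.1, numpy 2.4.6 and pandas 2.3.3. Gene positions and start windows come from RefSeq tables of GRCh38.p14, matched by symbol.

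The replicate numbers come from the sample titles. In total RNA, deviations from the group means of NPC and ESC libraries with the same number correlated at 0.369, 0.250 and 0.584 across genes. The highest values of these ESC libraries with an NPC library of another number were 0.254, 0.391 and −0.272. ESC replicate 2 thus matched another number better. The rule used (over 0.1 in every pair) was met, but it does not establish that the numbers pair these samples. The main tests are unpaired, and the blocked value is given where it changes a call.

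The 9 genes and the 9 other lists were chosen with earlier results of these data known. Named genes are the 9 in every comparison, up to 2 rises and 2 falls with the largest called changes in each other list described by gene, and the 2 genes nearest in profile to each of the 9 that was tested in both assays, without bare clone names. REST, TUBB3, STMN4, the transcription factors at 0 counts and the genes sharing the calls of MAP1B were named after their values were seen. A fold against a group with 0 counts is a bound against 3 counts over the group.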

Additional observations from a re-analysis of the deposited data

Results flagged for a closer look

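For 3 of the 6 genes tested in both assays, the change of NPC over ESC on ribosomes differed from that in total RNA by the test of the interaction itself. MAP1B differed by 1.94 ± 0.28 on the log2 scale (SE, edgeR adjusted p = 7.64e-05), with log2 fold changes of 1.06 on ribosomes and −0.93 in total RNA. GAP43 differed by 1.63 ± 0.27 (edgeR adjusted p = 0.000206), with 1.57 on ribosomes and −0.10 in total RNA. MAPT differed by 1.39 ± 0.46 (edgeR adjusted p = 0.0236), with 1.47 on ribosomes and 0.02 in total RNA, from 86 ribosome-bound counts in all. MAPT passed the ribosome filter through NPC, where 3 libraries reached the minimum and 1 did in ESC, and its interaction did not pass in 4 of the 12 fits with 1 library left out (adjusted p up to 0.0573). With 1 library left out at a time, the interaction of MAP1B ranged from 1.75 to 2.11, that of GAP43 from 1.49 to 1.82 and that of MAPT from 1.11 to 1.78. No group had the 4 samples needed for a formal search for single outlying libraries. By correlation, ESC total RNA replicate 3 and ESC ribosome-bound replicate 2 stood apart, as given above.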

How the results depend on the processing

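The counts of genes past the threshold, over all genes and among the 9, stayed within 1.5 times the main count under every alternative run (150 values over 5 comparisons). The count among the 9 was 4 or 5 in total RNA, 4 on ribosomes, 2 or 3 for the ratio between assays, and 4 to 6 in NPC and 3 or 4 in ESC for ribosome-bound over total RNA. For single genes no value that had passed changed sign, 469 values kept their call, 12 lost it and 5 gained it. The losses were 7 for ELAVL4 in total RNA, of which the report gives all but limma-voom (adjusted p = 0.0577) and the fit over all 12 libraries (0.0584), and 5 for MAPT. The gains were those of STMN2 in NPC. With the replicate number as a block, 10076 genes passed in total RNA, against 9791 without it, and 6765 on ribosomes, against 7572. Among the 9, the block changed the call of ELAVL4 and no other call. In ribosome-bound RNA same-numbered NPC and ESC libraries deviated with r = −0.160, −0.253 and −0.00744. These values gave no sign of pairing, but they cannot exclude it. Depth limits DCX, ELAVL3 and ELAVL4 on ribosomes, with 11 to 36 counts over 6 libraries.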
